A study of Mus musculus with 46 samples.

Results

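The galectin system was followed through 6 of the 25494 genes of the liver RNA table: Lgals1, Lgals3, Lgals4, Lgals8, Lgals9 and Lgals3bp. They were chosen by symbol with the diet contrast of these same RNA libraries known, so their mRNA differences are given as a description, without a test. Galectins are small lectins that bind beta-galactoside sugars on glycoproteins and glycolipids. They are made in the cytosol, leave the cell by an unconventional route, and cross-link receptors and matrix proteins outside it, while inside the cell several of them recognise sugars exposed on damaged lysosomes. In liver, galectin-1 and galectin-3 are known chiefly from macrophages, stellate cells and bile duct cells, galectin-9 from Kupffer cells and endothelium, and Lgals3bp encodes a secreted glycoprotein that binds galectin-3.

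The livers came from male C57BL/6 mice that arrived at 5 weeks of age and then ate, for 20 weeks, either a lipid-rich diet (LD, 60% of energy as lipid and 20% as carbohydrate) or a carbohydrate-rich diet (CD, 10% as lipid and 70% as carbohydrate), with protein at 20% in both. The labels name them high fat and low fat diet, and name no transgene or drug. RNA was sequenced from 5 mice per diet, and chromatin immunoprecipitation covered H3K27ac, the acetylation of active regulatory DNA, in 3 livers per diet and the transcription factors Hnf4a and C/EBPa in 2 livers per diet each. Promoter capture Hi-C (PCHi-C, which enriches contacts made by promoter fragments) and Hi-C had 2 libraries per diet, pooled in the deposited interaction and domain lists. RNA libraries held 31707963 to 38250613 counts on LD and 32450582 to 39012699 on CD. The hepatocyte marker Alb was abundant on both diets, at 67060 and 70260 CPM (counts scaled by library size) on average. Because whole liver was sequenced, more cells of a type and more RNA per cell cannot be told apart.

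Lgals1 carried the widest diet difference of the group. Its mRNA stood at 108, 113, 184, 197 and 172 CPM in the 5 LD mice and at 32.4, 22.4, 41.7, 22.0 and 35.7 CPM in the 5 CD mice. Every LD mouse lay above every CD mouse, and LD replicates 1 and 2 lay apart from the other 3 LD mice at the lower end. The LD mean was 155 ± 41.5 CPM and the CD mean 30.8 ± 8.54 CPM (SD, n = 5), a 5.02-fold difference with a log2 fold change of 2.33 ± 0.24 (SE, edgeR quasi-likelihood fit). Lgals1 encodes galectin-1, a prototype galectin that forms dimers, and its gene lies at chr15:78757155-78760895 on the plus strand (mm9).

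Lgals3 (chr14:47993535-48005842, plus strand), which encodes the chimera-type galectin-3, was less abundant and also higher on LD. The LD mice gave 10.9, 27.9, 18.0, 18.2 and 19.1 CPM and the CD mice 8.63, 6.55, 5.31, 5.37 and 6.58 CPM. The ranges did not overlap, although the lowest LD mouse, replicate 1, was close to the highest CD mouse, replicate 1. The log2 fold change was 1.54 ± 0.22 (SE). LD replicate 2 was the highest mouse for Lgals3 and also held the highest summed level of the neutrophil markers, at 72.3 CPM against 7.29 to 8.37 CPM in the other LD mice, and of the macrophage markers, at 1749 CPM against 707 to 1069 CPM. The part of those cells in the Lgals3 value was not tested. Without that mouse the log2 fold change of Lgals3 was 1.35.

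Lgals3bp (chr11:118254066-118263245, minus strand) was the most even of the genes that stood apart between diets. Its LD values were 84.4, 82.7, 92.6, 94.6 and 89.4 CPM and its CD values 63.8, 60.04, 69.7, 62.8 and 71.7 CPM. The lowest LD mouse was above the highest CD mouse, with means of 88.7 ± 5.10 and 65.6 ± 4.90 CPM (SD, n = 5) and a log2 fold change of 0.44 ± 0.07 (SE).

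Lgals8 (chr13:12531669-12554005) and Lgals9 (chr11:78776481-78798426), both on the minus strand, encode tandem-repeat galectins, with a pair of sugar-binding domains joined by a linker, and both overlapped between diets. Lgals8 stood at 224, 195, 242, 217 and 226 CPM on LD and at 216, 199.8, 195, 191 and 210.0 CPM on CD. The highest CD mouse exceeded the lowest LD mouse, and the log2 fold change was 0.12 ± 0.07 (SE). Lgals9, at 318, 271, 325, 374 and 323 CPM on LD and 339, 326, 327, 321 and 367 CPM on CD, had a log2 fold change of -0.06 ± 0.08 (SE). The CD values of Lgals9 lay within the LD range.

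Lgals4, a galectin of the intestinal lining, was barely detected. It collected 6 to 11 counts per library on LD and 5 to 16 on CD, and did not pass the filter on low counts. Its gene, chr7:29618813-29626722, overlaps the near-identical Lgals6 on the same strand, so reads shared by the pair may not have been assigned to either. Lgals6 itself summed to 2 counts on each diet.

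All LD mice lay above all CD mice at 3 of the 5 members that passed the filter on low counts, and at 10.2% of the 13494 genes that passed it. Of those genes 13.8% were called higher on LD (adjusted p below 0.05 and fold above 1.2), 11.1% were called lower and 24.9% in either direction, a call that is used here only for genes outside the group. Since the RNA contrast chose the genes, nothing is read from the comparison of these shares. Of all called genes 55.4% were higher on LD, against 75.1% when limma was run on log2(TPM + 1), where 740 rather than 1498 genes were called lower.

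**Figure D1:**
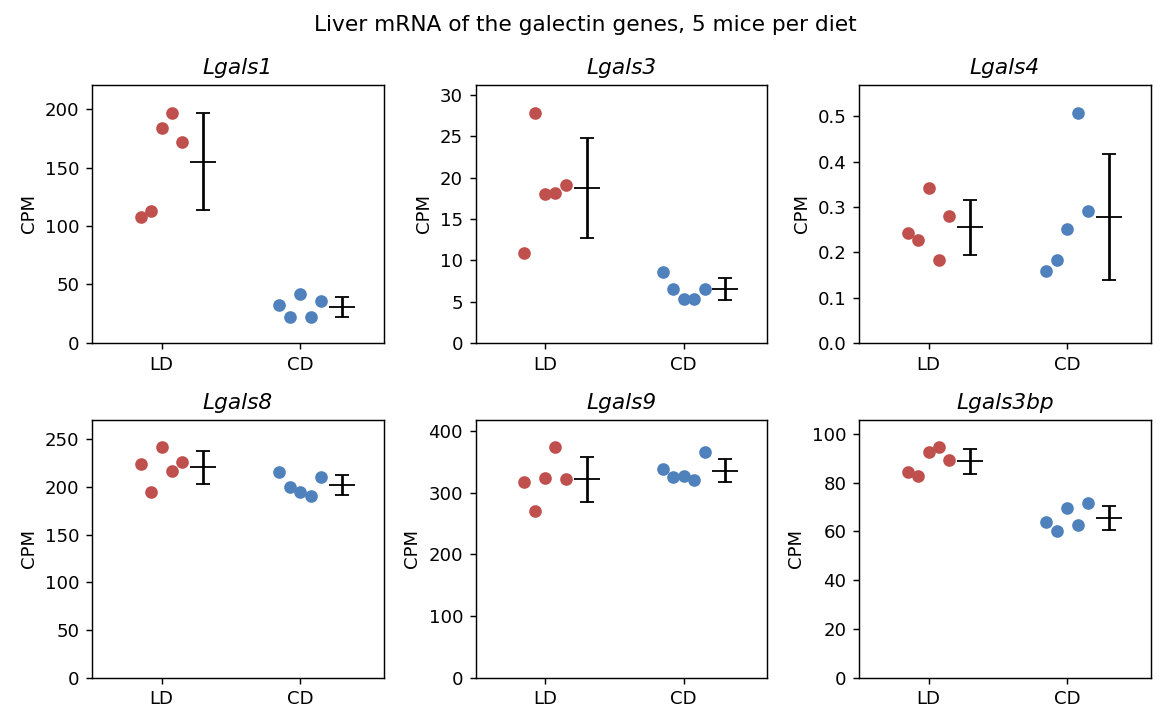
CPM of each gene in every mouse, with the mean and SD of 5 mice per diet beside the points. Lgals1, Lgals3 and Lgals3bp have all LD mice above all CD mice, whereas Lgals4, Lgals8 and Lgals9 overlap.

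Levels can be compared between genes only per transcript length, for which the deposited TPM (counts scaled by transcript length and library) were used. On CD the median order was Lgals9 at 375 TPM, Lgals8 at 121, Lgals1 at 68.7, Lgals3bp at 53.1, Lgals3 at 8.40 and Lgals4 at 0.318 TPM. Among these neighbours only Lgals1 and Lgals3bp overlapped, since Lgals1 spanned 50.5 to 94.6 TPM and Lgals3bp 49.9 to 59.3 TPM. On LD the median order was Lgals1 at 431 TPM, Lgals9 at 384, Lgals8 at 140.1, Lgals3bp at 78.7, Lgals3 at 24.0 and Lgals4 at 0.320 TPM. There Lgals1, at 255 to 444 TPM, overlapped Lgals9, at 316 to 425 TPM, and the other neighbours did not overlap.

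The make-up of galectin mRNA therefore differed between diets. Of the summed TPM of the 5 galectin genes, Lgals1 took 39.5% ± 5.18 on LD and 11.9% ± 2.80 on CD, and Lgals9 took 42.3% ± 3.58 on LD and 65.8% ± 2.10 on CD (SD, n = 5). Lgals8 took 15.3% ± 1.88 on LD and 20.8% ± 0.941 on CD, while Lgals3 took 2.85% ± 1.24 on LD and 1.43% ± 0.270 on CD. The lowest LD share of Lgals3, 1.855%, was barely above its highest CD share, 1.849%. Within a mouse, the TPM ratio of Lgals1 to Lgals9 ran from 0.671 to 1.123 on LD and from 0.136 to 0.252 on CD. The lower shares of Lgals9 and Lgals8 on LD came with mean TPM that were not lower. These were 385 TPM on LD and 380.4 TPM on CD for Lgals9 and 139 and 120.2 TPM for Lgals8. In CPM the mean of Lgals9 was slightly lower on LD, at 322 against 336. These shares follow from the same mRNA contrast and are a description.

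**Figure D2:**
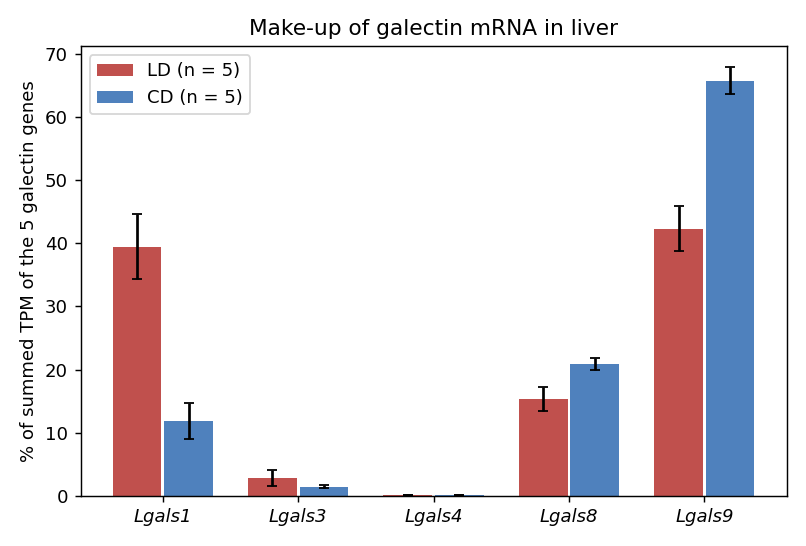
Share, not level, of each galectin gene in the summed TPM of Lgals1, Lgals3, Lgals4, Lgals8 and Lgals9, as mean and SD of 5 mice per diet. Lgals1 takes 39.5% on LD and 11.9% on CD, and Lgals9 takes 42.3% and 65.8%.

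Markers of other liver cell types were examined beside the galectin genes, and most of them were not called. Over all genes tested, 13.8% were called higher on LD and 11.1% lower. Of 15 macrophage and Kupffer cell markers tested, 3 were called higher on LD and none lower, Gpnmb by 4.53, Itgax by 2.48 and Cd68 by 0.96 on the log2 scale (edgeR adjusted p = 0.000107, 0.00015 and 0.00137). The median log2 fold change of the list was 0.52. These markers summed to 707 to 1749 CPM in LD mice and 532 to 1033 CPM in CD mice. The 10 stellate and mesenchymal markers had 4 called higher, Col1a1, Col1a2, Col3a1 and Dcn, and a median log2 fold change of 0.35. That list summed to 809 to 1164 CPM on LD and 704 to 841 CPM on CD. Of 6 bile duct markers tested only Spp1 was called (1.98 on the log2 scale, edgeR adjusted p = 0.00133), and the sums were 46.2 to 122 CPM on LD against 19.0 to 32.7 CPM on CD. Spp1 made up most of these sums, at 66.5 CPM on LD and 16.8 CPM on CD, while each other bile duct marker averaged at most 1.72 CPM, and the median log2 fold change of the list was 0.20. The neutrophil sums, 7.29 to 72.3 CPM on LD and 4.43 to 5.39 CPM on CD, did not overlap between diets. Of 4 neutrophil markers tested 1 was called, S100a8, which was higher on LD. The endothelial list had 1 of 8 called, Lyve1, which was higher on LD, and a median log2 fold change of -0.05. The hepatocyte list had 4 of 9 called lower (Cps1, Ass1, Tat and Fgb) and a median of -0.26. The T and NK cell list had 1 of 5 called higher, Cd8a, and the B cell list 1 of 4, Cd79b. Of the adipocyte markers Plin1 and Lep had 0 counts, and the list summed to at most 0.116 CPM in any mouse. The part of these cells in the galectin differences was not tested.

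The other genes with a galectin name were near the floor, apart from Lgalsl, the galectin-like gene. Lgalsl averaged 20.4 CPM in LD mice and 17.6 CPM in CD mice, and its log2 fold change was 0.21 ± 0.14 (SE, edgeR adjusted p = 0.263). Lgals2, a prototype galectin, averaged 0.176 CPM on LD and 0.295 CPM on CD, and Lgals7, Lgals12 and Grifin stayed at or below 0.0299 CPM on both diets. Of these 6 other galectin genes 1 passed the filter on low counts and 0 were called, with 0 at an unadjusted p under 0.05 (edgeR).

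Galectins read N-glycan branches and their galactose ends. The lists of genes outside the group, cell type markers included, were also chosen with earlier results of these data known, so their p-values are no independent evidence. Of 13 enzymes that build or extend such branches, 1 was called higher on LD, 1 lower and 11 were not called. The enzymes called were B3gnt8, which extends poly-N-acetyllactosamine, with 0.466 CPM in LD mice, 0.212 CPM in CD mice and a log2 fold change of 1.14 ± 0.37 (edgeR adjusted p = 0.033), and B3gnt2, of the same activity, at -0.27 ± 0.07 (adjusted p = 0.0081). The call of B3gnt8 was lost without LD replicate 2, 4 or 5 or CD replicate 1, 2, 3 or 5, and that of B3gnt2 without LD replicate 4 or 5 or CD replicate 2 or 4, and with limma on TPM. Leaving out a library brought the count called to between 0 and 2. The median of the list, 0.06, lay beside a median of -0.00187 over all genes tested.

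Of 6 sialyltransferases, which cap galactose with sialic acid, St3gal1 and St3gal4 were called lower on LD. Their log2 fold changes were -0.37 ± 0.08 and -0.27 ± 0.08 (adjusted p = 0.00512 and 0.0187, edgeR), while St6gal1 stayed at 0.03 ± 0.13. Glycans were not measured, so whether galectin ligands differed was not tested. St3gal4 was lost without LD replicate 1 or CD replicate 3 or 4, and both were lost with limma on TPM. No capping enzyme was called higher. The median of the list was -0.07.

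Among 18 glycoproteins known to carry galectin ligands, 6 were called higher and 4 lower on LD, so the list did not move one way and its median was 0.08. Trem2, a lipid receptor of macrophages, rose by a log2 fold change of 2.56 ± 0.47 (adjusted p = 0.00242, edgeR). Havcr2, the Tim-3 receptor of galectin-9, rose by 1.34 ± 0.34 (adjusted p = 0.0106), and the leukocyte sialophorin Spn by 1.29 ± 0.38 (adjusted p = 0.0254, lost without CD replicate 1, 2 or 3, and 0.72 on the log2 scale without LD replicate 2). Egfr, the epidermal growth factor receptor of hepatocytes, was much lower, at 165 CPM on LD against 895 CPM on CD, and fell by 2.44 ± 0.39 on the log2 scale (adjusted p = 0.002). Leaving out a library gave 7 to 10 called genes.

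Of 10 tested genes of the response to damaged lysosomes, 1 was called. Ulk1, a kinase that starts autophagy, fell by 0.65 ± 0.11 on the log2 scale (adjusted p = 0.00131, edgeR). The count was 2 without LD replicate 2 and 3 with limma on TPM. The median of the list was 0.07.

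Genes that start within 20 kb of a member number 6, Lgals6 among them. Pdxp, the pyridoxal phosphatase gene 12.8 kb upstream of Lgals1, was low but called higher on LD, at 0.781 CPM against 0.206 CPM on CD (log2 fold change 1.88 ± 0.40, adjusted p = 0.00381, edgeR). Nol12 and Triobp, on the other side of Lgals1, stood at 0.14 ± 0.10 and 0.11 ± 0.11 (adjusted p = 0.34 and 0.504). Ech1, a fatty acid oxidation gene upstream of Lgals4, rose by 0.57 ± 0.08 (adjusted p = 0.000254). Cant1, beside Lgals3bp, was at -0.02 ± 0.09 (adjusted p = 0.877).

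The mRNA profiles most like that of Lgals1, by the root mean square difference of mean-centred log2 CPM over 10 libraries among genes of at least 1 CPM, were those of Mogat1, Anxa2, Treh, Lamb3 and Orm2, with differences of 0.227, 0.28, 0.285, 0.285 and 0.301. Their log2 fold changes ran from 2.37 to 2.999. Those most like Lgals3 were S100a4, Hist1h3b, Mcm6, Capg and Hist1h3c, with differences of 0.174 to 0.213 and log2 fold changes of 1.32 to 1.89.

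Sequences are shown next at the peaks that carry the chromatin results, in mm9, plus strand, as 201 bases around the centre of the highest peak at a site. Capitals mark letter matches, on either strand, to one of 4 motifs: TTGCNNAA for C/EBP factors, CAAAGTNCA for Hnf4, TGANTCA for AP-1 and GGAAGT for ETS factors. A window without capitals holds none of these letters. The Lgals1 windows show its highest Hnf4a site, its only Hnf4 letter match and the site nearest to the H3K27ac stretch called on LD alone. The other windows show the highest C/EBPa sites of Lgals9 and Lgals3bp.
Lgals1 Hnf4a site 0.645 kb upstream, intergenic, chr15:78756410-78756610: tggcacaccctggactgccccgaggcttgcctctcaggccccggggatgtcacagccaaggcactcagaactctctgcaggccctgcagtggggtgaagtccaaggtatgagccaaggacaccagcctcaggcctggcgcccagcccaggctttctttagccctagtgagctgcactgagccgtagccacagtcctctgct
Lgals1 Hnf4a site 0.339 kb inside the gene, intronic, chr15:78757394-78757594: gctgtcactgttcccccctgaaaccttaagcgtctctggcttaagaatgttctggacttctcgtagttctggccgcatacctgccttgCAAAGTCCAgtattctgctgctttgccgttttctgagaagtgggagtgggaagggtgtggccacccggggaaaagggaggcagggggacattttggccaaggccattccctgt
Lgals1 Hnf4a site 11.9 kb upstream, in an intron of Pdxp and Sh3bp1, chr15:78745196-78745396: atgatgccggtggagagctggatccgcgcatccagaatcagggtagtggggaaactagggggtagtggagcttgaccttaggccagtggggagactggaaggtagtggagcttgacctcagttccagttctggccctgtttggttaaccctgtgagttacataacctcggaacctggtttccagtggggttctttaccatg
Lgals9 C/EBPa site 11.4 kb inside the gene, intronic, chr11:78786939-78787139: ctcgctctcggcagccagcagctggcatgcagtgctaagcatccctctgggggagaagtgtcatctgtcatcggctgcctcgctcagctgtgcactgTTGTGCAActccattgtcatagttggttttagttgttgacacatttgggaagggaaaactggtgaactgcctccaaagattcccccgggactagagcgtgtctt
Lgals3bp C/EBPa site 18.5 kb upstream, intergenic, chr11:118281673-118281873: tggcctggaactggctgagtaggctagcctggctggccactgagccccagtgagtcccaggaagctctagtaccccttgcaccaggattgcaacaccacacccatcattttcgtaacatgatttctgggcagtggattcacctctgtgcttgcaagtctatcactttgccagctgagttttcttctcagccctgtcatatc

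The letters also occur widely. TTGCNNAA was in 37.1% of the 38244 C/EBPa peaks of LD replicate 1, and CAAAGTNCA in 11.1% of the 46332 Hnf4a peaks of LD replicate 1, counting peaks on the numbered chromosomes and X. Around the galectin genes, 8 of 25 C/EBPa sites held TTGCNNAA and 1 of 28 Hnf4a sites held CAAAGTNCA, the one in the Lgals1 intron. The RefSeq promoter windows (250 bases before to 50 after a start, GRCm38.p6) matched 5 members, and of these Lgals9 alone held a match, to GGAAGT, which 23.8% of all 32851 promoters hold. Lgals1 had no entry.

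Peaks within 20 kb of the genes may also have been known when the group was chosen, so the chromatin values are a description without a test. Around Lgals1, H3K27ac covered more bases on LD in every liver. Peaks covered 20.6%, 20.6% and 21.0% of the gene and its 20 kb flanks in the LD livers and 13.7%, 14.2% and 14.2% in the CD livers. The groups did not overlap, at 20.7% ± 0.264 and 14.02% ± 0.264 (SD, n = 3). The difference of 6.71 percentage points came with a median of 0.762 points over all genes with any coverage. A stretch over the start site was present in all 6 livers. A further stretch, chr15:78744000-78745199, centred 12.6 kb upstream, lies at the start of Pdxp, whose mRNA was higher on LD as given above. The peak of LD replicate 2 holds the Pdxp start site, and those of LD replicates 1 and 3 begin just beside it. This stretch was called in 3 of 3 LD livers and 0 of 3 CD livers, with 600 to 800 bases per LD liver.

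Lgals3 had the largest difference in coverage among the 6 members, at 14.3%, 22.7% and 26.1% on LD and 12.4%, 8.15% and 8.54% on CD. All LD livers were above all CD livers. LD replicate 1 lay close to CD replicate 1. Upstream of Lgals3, stretches centred at 8.44 and 6.44 kb before the start were called in 2 LD livers each and in 0 CD livers, and a stretch at the start of the gene was called in all 6 livers.

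Lgals3bp followed the same direction, at 25.2%, 31.3% and 30.1% on LD and 24.0%, 21.2% and 22.4% on CD. Its start site and 2 kb on each side were covered in full in all 6 livers. The stretch over the gene overlapped between diets in covered bases, at 5600, 8000 and 7600 on LD and 5800, 5200 and 7400 on CD. The stretch upstream around Cant1 did not overlap, at 6800, 7400 and 7200 bases on LD and 6000, 5200 and 3600 on CD.

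Lgals9 went the other way. The LD livers had 26.5%, 31.3% and 32.3% of its window covered, the CD livers 32.6%, 36.5% and 39.1%, with all CD livers above all LD livers, though LD replicate 3 and CD replicate 1 were near each other. A stretch just past the 3' end of the gene, chr11:78772800-78775599, was called in 0 of 3 LD livers and 3 of 3 CD livers, with 1000 to 1600 bases each. Lgals9 mRNA overlapped between the diets.

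Lgals4 and Lgals8 overlapped. The start of Lgals4 lies inside a stretch of 32200 bases that also covers Ech1, with coverage between 45.1% and 50.5% in LD livers and between 40.1% and 45.5% in CD livers. Lgals8 had 36.9% to 43.0% in LD livers and 41.4% to 43.3% in CD livers.

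In total, 3 of 6 members had every LD liver above every CD liver in H3K27ac coverage of the gene with its 20 kb flanks, and 1 had every LD liver below. The count below was 2 without LD replicate 2, and 0 with flanks of 50 kb. Over the 18941 genes with coverage, the shares were 21.0% above and 5.34% below. The LD livers also had more H3K27ac called over the whole genome, at 150 to 160.4 Mb against 140 to 145 Mb on CD. Its part in the differences around the members was not tested.

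**Figure D3:**
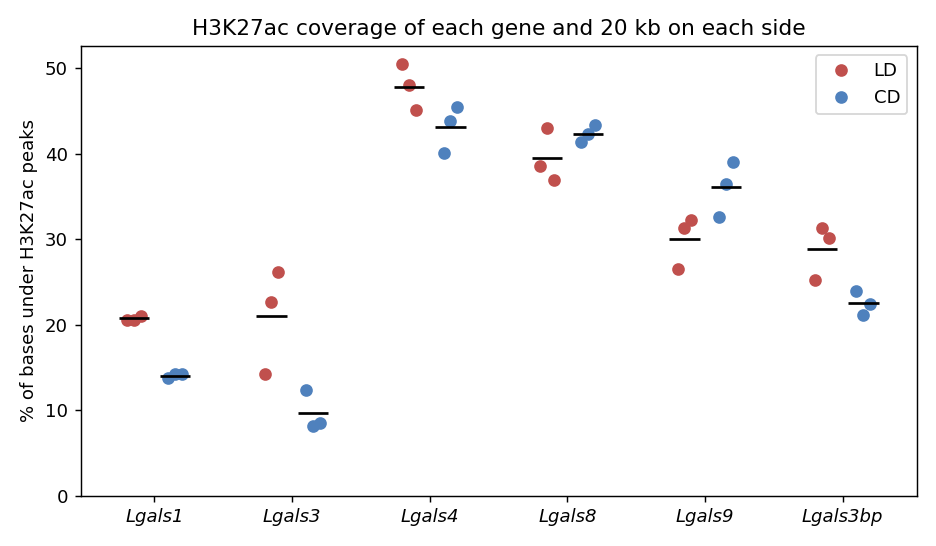
Percent of bases under H3K27ac peaks in each gene with 20 kb on each side. Points are livers, 3 per diet, and lines their means. LD livers lie above CD livers at Lgals1, Lgals3 and Lgals3bp and below them at Lgals9.

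Hnf4a, a nuclear receptor that holds the hepatocyte programme, had lower summed peak heights at Lgals1 and Lgals3 than at Lgals8 and Lgals9 in each of the 4 livers, over windows that are longer for longer genes. Peak heights are HOMER's normalised tag counts. At Lgals1 the heights of all peaks within 20 kb summed to 86.6 and 69.3 in the LD livers and to 35.0 and 68.8 in the CD livers. Both LD livers were above both CD livers, by a margin of less than 1 tag at the nearest pair. The site 0.645 kb upstream had heights of 50.5 and 43.0 on LD, 21.5 and 38 on CD. The site 11.9 kb upstream, which touches the edge of the H3K27ac peak upstream in LD replicate 1 alone, had 11.5 and 17.8 on LD, no peak in CD replicate 1 and 5.75 in CD replicate 2.

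At Lgals3 the sums were 14.5 and 33.5 on LD and 0 and 31.8 on CD. At Lgals8 they were 358 and 309 on LD and 228 and 461 on CD, over 8 sites of which 4 were called in all 4 livers. The highest Lgals8 site lies over a coding exon, 6.84 kb inside the gene, with 132 and 115 on LD and 84.2 and 164 on CD. At Lgals9 the sums were 212 and 198 on LD and 131 and 272 on CD, mostly from an intronic site 2.77 kb inside the gene (162 and 153, and 97.8 and 210.0). Lgals4 had 137 and 156 on LD and 76.2 and 208 on CD, and Lgals3bp 67.5 and 48.5 on LD and 46.0 and 92.0 on CD. At these 5 genes the CD livers bracketed the LD livers or overlapped them.

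CD replicate 1 was the lowest and CD replicate 2 the highest Hnf4a library over the genome, with 35143 and 47992 peaks and median heights of 15.2 and 21.5, against 46363 and 44247 peaks and 19.2 and 19.5 on LD. With heights divided by the median of their own library, a scaling chosen after the data were seen, Lgals1 stood at 4.51 and 3.55 on LD and 2.30 and 3.20 on CD. Lgals1 was then still the one member of 6 with both LD livers above both CD livers, and 0 had both below. With a liver left out, the mean difference of LD minus CD stayed positive at Lgals1, between 9.2 and 43.0. At every other member it took both signs, as at Lgals8, between -128 and 106. With flanks of 10 kb the count of members higher was 0. Over all 18697 genes with a peak, 14.4% had both LD livers above both CD livers and 4.96% had both below. With 2 livers per diet an exact permutation test cannot reach a p under 0.05, and none was run.

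C/EBPa, a leucine zipper factor of hepatocytes, was absent from the peak lists around Lgals1 in 3 of 4 livers, with a single peak of 11 in CD replicate 2. That library had the most C/EBPa peaks over the genome, 46371, and the lowest median height, 8.5. CD replicate 1 had 41713 peaks and a median of 13.0, and the LD livers 38281 and 39310 peaks and medians of 11.5 and 12.5. Around Lgals9 the C/EBPa sums were 87.5 and 96.0 on LD and 112.5 and 107.5 on CD, and here both LD livers were below both CD livers. The intronic Lgals9 site printed above, with its TTGTGCAA match, had 49.5 and 46.5 on LD and 59.0 and 55.0 on CD. Lgals3bp had 78.5 and 81 on LD, 87.5 and 81 on CD, mostly from the site 18.5 kb upstream. The LD and CD livers overlapped at Lgals3, with 35 and 29 on LD against 28 and 31. They overlapped at Lgals4, with 68 and 66.5 on LD against 96.5 and 58.5, and at Lgals8, with 52 and 52 on LD against 52.5 and 39. No member had both LD livers above both CD livers in C/EBPa, and 1 of 6 had both below. The shares over 21022 genes were 9.21% above and 34.1% below. With a liver left out, the mean difference of LD minus CD stayed negative at Lgals9, between -22.5 and -14, and at Lgals3bp. It took both signs at Lgals3, Lgals4 and Lgals8, and ran from -11 to 0 at Lgals1.

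**Figure D4:**
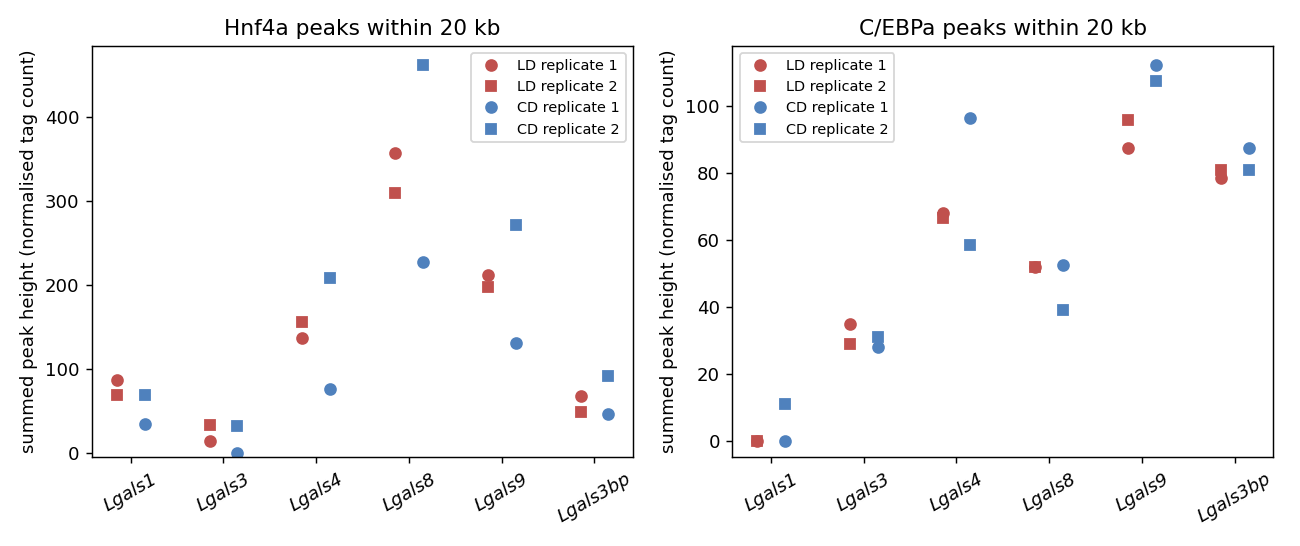
Summed height of Hnf4a and C/EBPa peaks within 20 kb of each gene, as normalised tag counts, for each of 2 livers per diet. Lgals1 has both LD livers above both CD livers for Hnf4a and Lgals9 both below for C/EBPa.

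**Figure D5:**
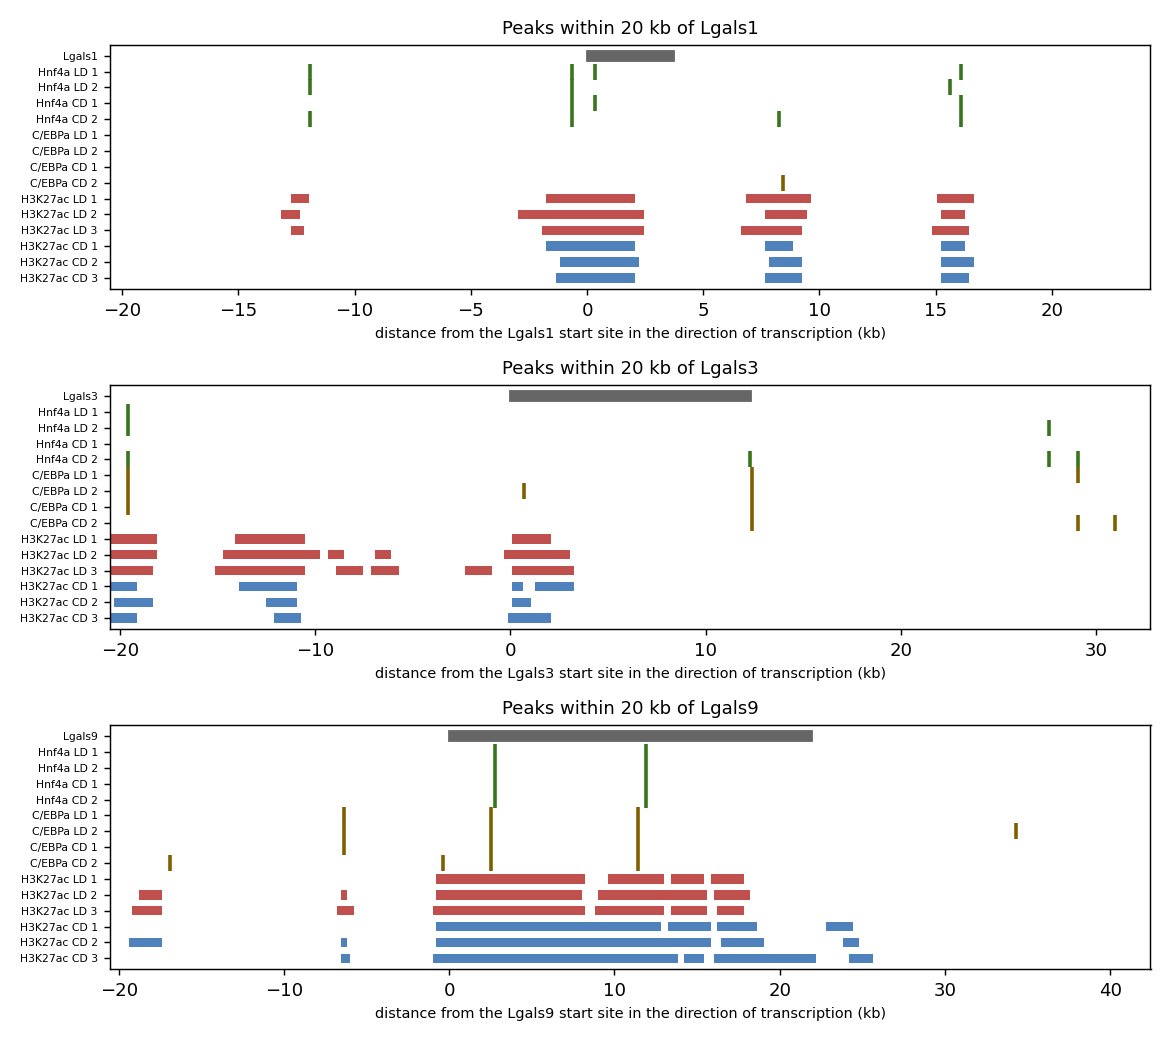
H3K27ac peaks (bars, red for LD and blue for CD) and the centres of Hnf4a and C/EBPa sites (ticks), with a row per liver and the gene as a grey bar, within 20 kb of Lgals1, Lgals3 and Lgals9, by distance from the start site in kb, in the direction of transcription. LD livers alone have the H3K27ac stretch 12.6 kb upstream of Lgals1, at the start of Pdxp, and CD livers alone the stretch past the end of Lgals9.

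PCHi-C interactions with a CHiCAGO score of at least 5 and within 1 Mb were listed for 3 of the 6 members, with 8 on LD and 9 on CD, and 5 found on both. Lgals1, Lgals3 and Lgals3bp had no interaction on either diet, and the fragment of their start site was neither a listed bait nor a listed other end. The nearest listed baits were 16.8 kb from the Lgals1 start (Triobp), 40.8 kb from that of Lgals3 (Dlgap5) and 522 kb from that of Lgals3bp. The study aimed its baits at annotated promoters, and a list of baited fragments was not used here.

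Lgals9 lies in its own bait, chr11:78797511-78798875. Its contact with the Sarm1 promoter fragment, 488 kb away, scored 9.46 on LD and 8.27 on CD, and the other 2 interactions on each diet were found on that diet only, with scores of 5.15 to 5.67. The Lgals8 fragment was listed only as the far end of other promoters. Contacts with Ero1lb, 111 kb away, scored 6.77 on LD and 7.95 on CD, and those with a small nucleolar RNA gene, SNORA73.5, scored 6.23 and 5.91. Mtr and Edaradd were joined to it on CD only, at scores of 6 and 5.72. Lgals4 shares the fragment of Ech1, with 3 interactions on LD and 2 on CD, all within 22.3 kb. The members shared 5 of 8 LD interactions and 5 of 9 CD interactions. Over the genome, 69.6% of LD interactions were found on CD too and 70.3% of CD interactions on LD. These lists pool the replicates, so no spread is available.

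Domains called from Hi-C held the start site of each member on both diets. Lgals4 and Lgals9 lay in the same domain on both, of 300 and 245 kb, and the 3' part of Lgals9 crossed the domain edge. The domain of Lgals1 was 260 kb on LD and 275 kb on CD, that of Lgals8 360 and 350 kb, and that of Lgals3bp 245 and 230 kb. The domain with Lgals3 was 300 kb on LD and 140 kb on CD, with the same upstream edge. No replicate error can be given for these domains.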

How the data were processed

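RNA-seq read pairs were aligned by the authors to mm9 with STAR (2.5) and counted per gene, by strand, with featureCounts (1.5.0-p1), versions as in the submitters' processing notes. The deposited counts were tested with edgeR quasi-likelihood (TMM, filterByExpr, robust, Benjamini-Hochberg over all tested genes), and called at adjusted p below 0.05 and fold above 1.2. Error after ± is SD for levels and SE for log2 fold changes. TPM were deposited by the authors. One CD column carries a number that no title holds and was used as a CD mouse without a number. H3K27ac peaks came from SICER, per liver, and the deposited signal of Hnf4a and C/EBPa peaks is HOMER's normalised tag count, against input. CHiCAGO scores and Hi-C domains were called by the authors on pooled replicates. Columns of the authors' own fold changes were not used.

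The members and lists were chosen with earlier results of these data known. Named genes were the members, the other galectins, up to 4 called genes per list by size of change, neighbours starting within 20 kb, and the 5 profiles nearest Lgals1 and Lgals3. Motifs were chosen after the data were seen. Not every site is reported here. Replicates are separate mice per the study's methods, and whether same-numbered libraries of different assays share a mouse is not given in the sources used here. Peak coverage was compared as values per liver. Alternatives were DESeq2, its size factors, other count filters, limma on TPM, a replicate block, other flanks, peak and score thresholds, and leaving out each library. edgeR 4.0.16, limma 3.58.1, DESeq2 1.42.0, scipy 1.17.1 and R 4.3.3 were used.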

Additional observations from a re-analysis of the deposited data

Results flagged for a closer look

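Among 54 groups of 5 mice examined, 8 held a mouse whose gap to the others was large for the range of its group, where chance gives about 1 in 20, or 2.7. The summed bile duct markers were 32.73 CPM in CD replicate 2 and 18.98 to 20.33 CPM in the other CD mice. The summed neutrophil markers were 72.26 CPM in LD replicate 2 and 7.293 to 8.37 CPM in the other LD mice. The summed adipocyte markers were 0.06065 CPM in LD replicate 4 and 0.02517 to 0.03103 CPM in the other LD mice. B3gnt8 was at 0.3176 CPM in CD replicate 4, against 0.1593 to 0.2038 CPM in the rest of its group. St3gal1 was at 64.83 CPM in CD replicate 3, against 48.11 to 52.83 CPM. Havcr2 was at 0.4699 CPM in CD replicate 2, against 0.7277 to 0.7622 CPM. LD replicate 2 also stood apart for Spn, at 8.23 CPM against 1.985 to 2.886 CPM, and for Ulk1, at 23.18 CPM against 32.31 to 35.96 CPM. No member of the galectin group was among them.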

How the results depend on the processing

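Over 17 alternatives, the log2 fold change stayed between 2.224 and 2.459 for Lgals1, 1.351 and 1.682 for Lgals3 and 0.4041 and 0.5138 for Lgals3bp, while Lgals9 ran from -0.1208 to 0.01016 and Lgals8 from 0.08968 to 0.2001. With limma on log2(TPM + 1) and log2(TPM + 0.1), 740 and 778 genes were called lower on LD, with 1 and 1 N-glycan branching genes, 0 and 0 sialyl capping genes and 3 and 3 lysosomal damage genes called. The cause was not tested. With at least 10 counts in every sample, 1 N-glycan branching gene was called. Leaving out each library in turn gave 1631 to 1890 genes higher and 1202 to 1595 lower, 0 to 2 N-glycan branching genes, 1 to 2 sialyl capping genes, 7 to 10 ligand glycoproteins and 1 to 2 lysosomal damage genes. For H3K27ac, flanks of 50 kb left 0 members lower on LD and turned the difference at Lgals8 to 0.7084 points, and leaving out a liver gave 3 to 4 members higher and 1 to 2 lower. For Hnf4a, flanks of 10 kb gave 0 members higher, and the highest peak in place of the sum gave 2 higher and 1 lower. Leaving out a liver gave 1 to 6 members higher and 0 to 4 lower. For C/EBPa, flanks of 50 kb gave 1 member higher, and peaks of at least the median height, or heights divided by the library median (added after the data were seen), gave 2 lower. Leaving out a liver gave C/EBPa differences of both signs at Lgals3, Lgals4 and Lgals8. At scores of at least 7, interactions numbered 2 on LD, 3 on CD and 2 on both, and at scores of at least 10 there were 0, 0 and 0.

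The replicate numbers did not pair the RNA mice, since deviations of same-numbered mice correlated between -0.113 and 0.217, with 1 of 5 pairs over 0.1, and 2 libraries correlated best with their own number. With the replicate number as a block, 1818 genes were higher and 1355 lower, and Lgals1 was at 2.323, Lgals3 at 1.504 and Lgals3bp at 0.4369.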
